A study of Mus musculus with 8 samples.

Results

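The genes of the mitochondrial ribosome were followed in tubular epithelial cells of cystic mouse kidneys after 1 week on a low, normal or high protein diet. The members are the protein-coding genes of the expression table whose symbol is Mrpl or Mrps followed by a digit, which gave 78 genes, 49 named Mrpl and 29 named Mrps, of 21929 protein-coding genes and 53700 genes in all. The rule used the symbols alone and no measured value. All mice were Pkd1KO, with floxed Pkd1 deleted in adult tissues by the tamoxifen-inducible CAGG-CreER transgene, which is active systemically and not in tubules alone. They received tamoxifen at 5 to 6 weeks of age and were placed on their diet 2 weeks later. The diets held 6% protein (LP, 2 libraries), 18% (NP, 3 libraries) or 60% (HP, 3 libraries) at 2.8 g of food per day. They also differed in carbohydrate, with more sucrose on LP than on NP and less carbohydrate on HP than on both. Kidney suspensions were stained for macrophage and tubule markers and sorted for epithelium, and each library is a pool of 2 to 3 mice. The libraries are named by diet and by the label the submitters gave them, namely LP F2 and LP M, NP F2, NP KO7 and NP M, and HP F1, HP F2 and HP M. No library came from mice with intact Pkd1, so only diets could be compared.

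Mitochondria carry their own ribosomes, which translate the few mRNAs encoded by mitochondrial DNA into core subunits of the respiratory chain. The ribosomal RNAs come from mitochondrial DNA, whereas every protein of the particle is encoded in the nucleus, translated in the cytosol and imported. Part of these proteins descend from the bacterial ribosome and the rest were added in the mitochondrial lineage. Tubule cells of the kidney, and the proximal tubule above all, are rich in mitochondria because salt and solute transport is driven by oxidative metabolism. Of the members, 48 encode proteins with relatives in the bacterial ribosome and 29 encode proteins without. The last, Mrps36, is named as a ribosomal protein but is now known as a subunit of the 2-oxoglutarate dehydrogenase complex of the tricarboxylic acid cycle. Mrps30 and Mrps18a carry small subunit names, and their proteins sit in the large subunit.

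Promoters of the members were searched for known sequences, and a link between these and the RNA levels was not tested. RefSeq promoter windows from 250 bases before to 50 bases after the start (GRCm38.p6) were found for 69 of the 78 members, in 75 windows. The 5 sequences searched on both strands were the ETS core CCGGAAG, the NRF1 sequence (the arms GCGCA and GCGC with any base between them), the YY1 core AAGATGGCG, the cAMP response element TGACGTCA and the E-box CACGTG. The ETS core was present in 34.7% of the member windows and in 8.8% of the 32776 other windows. The NRF1 sequence was present in 17.3% against 4.6%, and the YY1 core in 10.7% against 1.4%. For the others the shares were 2.7% against 1.8% for the cAMP response element and 9.3% against 7.1% for the E-box. One or more of the first 3 sequences were present for 41 members, and no match of one overlapped a match of another in the member windows. NRF1 and the ETS factor GABP (also named NRF2 in this field) are known regulators of nuclear genes for mitochondrial proteins. A match is a description of the letters and not a bound site.

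The following stretches of 30 bases lie upstream of the start of members described below, written 5′ to 3′ on the strand of the gene, with the NRF1 sequence (or its complement on the other strand) in capitals.
Mrps21, chr3:95871586-95871615, minus strand: ggaaagtccaGCGCCTGCGCtcagcaccga
Mrpl12, chr11:120484546-120484575, plus strand: tattgtctccGCGCCTGCGCgtcgcaccgc
Mrpl32, chr13:14613105-14613134, minus strand: tttgacccttGCGCATGCGCaagaggggcc
Mrpl44, chr1:79775973-79776002, plus strand: agaagcacttGCGCACGCGCagtacactag

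The next group carries the ETS core in capitals, and Mrpl34 is given over 120 bases because no annotated exon of another gene covers them.
Mrpl22, chr11:58171599-58171628, plus strand: acttttccggtcCCGGAAGccggcctcgga
Mrps18a, chr17:46110966-46110995, plus strand: cacacccctgctCCGGAAGcggaagtgcac
Mrpl34, chr8:71464806-71464925, plus strand: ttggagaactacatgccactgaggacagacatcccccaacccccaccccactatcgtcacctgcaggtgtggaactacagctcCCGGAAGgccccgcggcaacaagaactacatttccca

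RNA was measured as FPKM, which scales the fragments of a gene by its transcript length and by the mapped fragments of the library. The step between low values of each library gave an estimated 26300000 to 34500000 fragments, lowest in NP KO7 and highest in HP F1, so that the members, none of which was at 0 in any library, rest on many fragments each. Markers of the nephron were present in every library, with a summed level of 8 proximal tubule genes between 3379 and 5886 FPKM. Macrophage markers (7 genes, such as Adgre1 and Csf1r) summed to 72.9 to 201 FPKM, erythroid genes to 89.7 to 424 FPKM and endothelial genes to 33.5 to 79.3 FPKM. No marker of these lists was at 0 in any library, so transcripts typical of other cell types were present. Whether they came from other cells in the sorted material was not tested. In such bulk samples, fewer cells of a type and less RNA per cell cannot be told apart. Xist was at 16.3 FPKM in the library labelled LP M, against 0.81 and 1.09 FPKM in NP M and HP M, while Ddx3y, a gene of the Y chromosome, was at 9.74 FPKM there and at 12.4 and 11.7 FPKM in those libraries, so LP M carried transcripts of both sexes. NP KO7, whose label names no sex, had 0.78 FPKM of Xist and 7.99 FPKM of Ddx3y, near the values of NP M and HP M. Libraries labelled F1 or F2 had 23.4 to 45.3 FPKM of Xist and 0.21 to 0.77 FPKM of Ddx3y. Sex was therefore not balanced between the diets. The study states that 1 sample held too little RNA and does not name it.

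All 78 members were expressed in these cells, and 76 of them stood at 10 FPKM or more in every library. The median member had a mean of 51.0 FPKM, 18 members had a mean of at least 100 FPKM and 8 had a mean under 20 FPKM. Mrps21, a small subunit protein, was the most abundant per length. Its levels were 672 and 698 FPKM on LP (F2, M), 485, 613 and 368 FPKM on NP (F2, KO7, M) and 520, 548 and 423 FPKM on HP (F1, F2, M), and its mean over the 8 libraries was 9.86% of the sum of all members. Both LP libraries were above all others for this gene, while NP and HP overlapped. Mrpl12 followed, the protein of the flexible stalk that contacts translation factors and is also known to bind the mitochondrial RNA polymerase, with 252 to 260 FPKM on LP, 174 to 238 FPKM on NP and 186 to 231 FPKM on HP. Next came the large subunit genes Mrpl42, at 150 to 222 FPKM, and Mrpl34, at 112 to 172 FPKM. At the low end stood Mrpl1 (6.26 to 9.42 FPKM), whose protein forms the mobile stalk at the tRNA exit side, Mrpl19 (6.57 to 16.2 FPKM), Mrps30 (10.1 to 14.9 FPKM) and Mrps2 (12.4 to 16.9 FPKM). The highest mean was thus 72.3 times the lowest. Within a member the libraries differed little, since the highest was 1.28 times (Mrpl37) to 2.48 times (Mrps6) the lowest, with a median of 1.51.

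**Figure D1:**
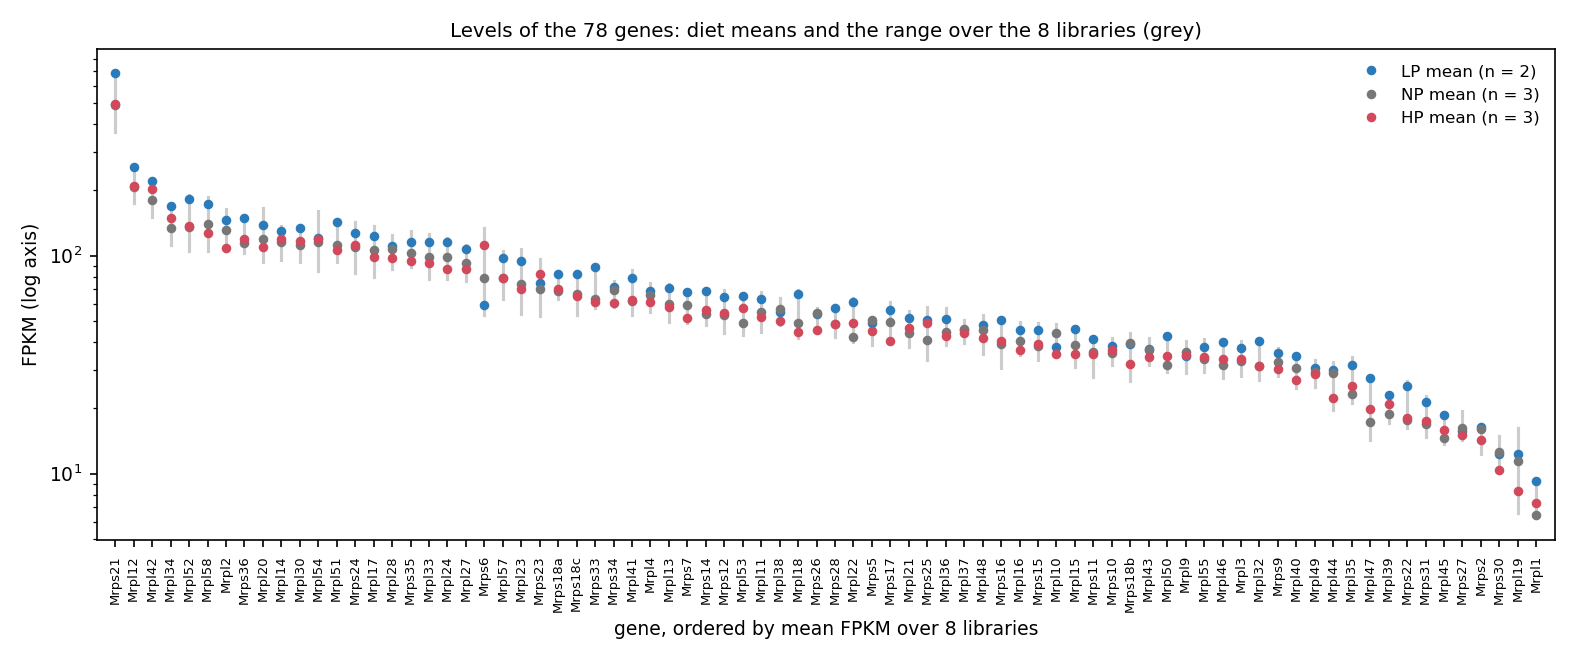
FPKM (log axis) of the 78 genes in order of their mean over the 8 libraries. Coloured points are diet means and grey lines span the 8 libraries, and the LP mean (blue) is the highest of the 3 means for 67 members.

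The members moved largely together from library to library, and not by diet alone. Their summed level was 6363 and 6169 FPKM on LP (F2, M), 5126, 6123 and 4524 FPKM on NP (F2, KO7, M), and 5419, 5556 and 4620 FPKM on HP (F1, F2, M). LP thus averaged 6266 ± 137 FPKM (SD, n = 2), NP 5258 ± 807 FPKM (SD, n = 3) and HP 5198 ± 506 FPKM (SD, n = 3), and NP KO7 stood near LP M and apart from NP F2 and NP M. As a share of all FPKM the members made up 0.468% (HP M) to 0.645% (NP KO7). Above their own mean over the 8 libraries were 71 members in LP F2, 67 in LP M and 65 in NP KO7, against 10 in NP M and 1 in HP M. NP F2, HP F1 and HP F2 lay between, with 26, 38 and 39 members. The highest library was LP F2, LP M or NP KO7 for 73 of the 78 members, against 40.2% of all genes, and the lowest was NP M or HP M for 52, against 25.3% of all genes.

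**Figure D2:**
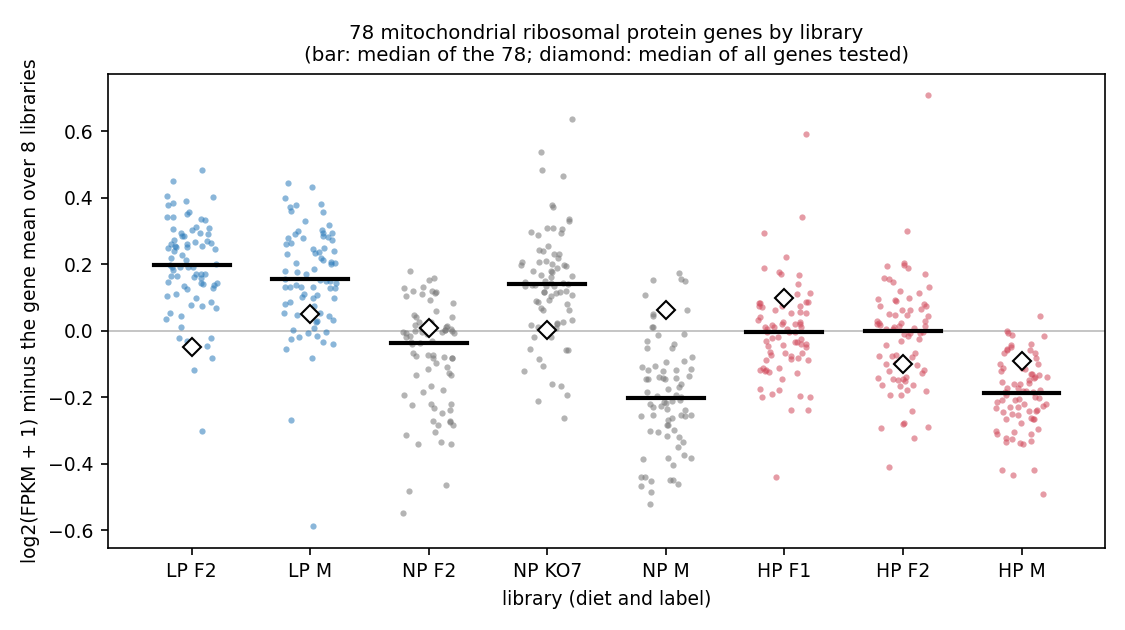
Each point is 1 of the 78 genes in 1 library, as log2(FPKM + 1) minus the mean of that gene over the 8 libraries. The bars, medians of the 78, are highest in LP F2 (0.20), LP M (0.15) and NP KO7 (0.14) and lowest in NP M (−0.20) and HP M (−0.19), while the diamonds, medians of all genes tested, stay between −0.10 and 0.10.

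On LP most members stood above NP by a small amount, and no single member passed the test. The log2 fold change of FPKM + 1 was above 0 for 68 members and below 0 for 10, with a median of 0.24, where the median over all 13566 genes tested was −0.02 and 47.9% were above 0. The libraries of the 2 diets did not overlap for 33 members: 32 (41.0%) were higher in both LP libraries than in all NP libraries, as were 12.7% of all genes, and 1, Mrpl10, was lower in both, as were 16.4% of all genes. NP KO7 was at or above the lower LP library in 42 members, and without it 55 members were higher in both LP libraries, as were 20.8% of all genes. By limma with Benjamini-Hochberg adjustment over all genes, 0 of 78 members passed an adjusted p of 0.05, and 2 of all genes did (0.0147%). At an unadjusted p under 0.05, 13 members were higher (16.7%) and 0 lower, where 4.57% of all genes were higher and 5.82% lower. The smallest adjusted p among the members was 0.400. Within the libraries labelled F2 the median difference of LP from NP was 0.28 with 68 members above 0, and within those labelled M it was 0.36 with 73 above 0. All genes had medians of −0.05 (44.0% above 0) and −0.02 (47.2% above 0) there. Each of these sets 1 library against 1 library. With libraries scaled to the same FPKM sum the median was 0.14 with 60 members above 0, where that of all genes was −0.10, and 19 members (24.4%) were higher in both LP libraries, as were 7.72% of all genes. Scaling without haemoglobin and mitochondrially encoded genes gave a median of 0.13 with 60 above 0, where that of all genes was −0.11.

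The members furthest above NP on LP were Mrpl47, Mrpl22 and Mrps21. Mrpl47, whose protein sits near the exit of the tunnel through which new chains leave, lay at 28.1 and 26.7 FPKM on LP (F2, M), at 14.3, 17.99 and 19.6 FPKM on NP (F2, KO7, M) and at 19.7, 19.2 and 20.2 FPKM on HP (F1, F2, M). Both LP libraries were above every other library, NP KO7 included, with a log2 fold change against NP of 0.65 ± 0.16 (SE) and an adjusted p of 0.400 (limma). Its exons overlap those of Ndufb5 and Actl6a on the other strand, and reads of the pair cannot be told apart unless strand was used in counting. Mrpl22, whose protein lines the tunnel, lay at 58.6 and 63.9 FPKM on LP, 41.7, 45.0 and 40.2 FPKM on NP and 52.1, 49.5 and 46.3 FPKM on HP in the same order. The 3 diets were separate for this gene, with LP highest and NP lowest, and LP differed from NP by 0.52 ± 0.13 (SE) on the log2 scale at an adjusted p of 0.400 (limma). In the other direction only Mrpl10, which anchors the stalk proteins to the particle, had separate ranges, and its levels were 38.4 and 38.2 FPKM on LP against 42.7, 48.7 and 40.6 FPKM on NP. Its log2 fold change was −0.19 ± 0.13 (SE) with an adjusted p of 0.623 (limma). Mrps6 had the lowest value of the members, −0.32 ± 0.33 (SE), and Mrpl9 had −0.08 ± 0.17 (SE), and for both genes the libraries of the diets overlapped.

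HP stood below LP for nearly all members. The log2 fold change was below 0 for 75 members and above 0 for 3 (Mrps6, Mrps23 and Mrpl9), with a median of −0.26 where that of all genes was −0.04. All HP libraries were below both LP libraries for 49 members (62.8%), as were 20.3% of all genes, and Mrps6 alone was above, as were 12.8%. Again 0 of 78 members passed the adjusted threshold, and 2 of all genes did (0.0147%), while at an unadjusted p under 0.05 in limma 15 members (19.2%) were lower and 1 higher, where 7.32% of all genes were lower and 5.06% higher. Scaling the libraries without haemoglobin and mitochondrially encoded genes, which make up 25.7 to 36.3% of the FPKM, moved the median of all genes from −0.04 to 0.09 and that of the members to −0.11, with 17 members above 0 and 22 (28.2%) below both LP libraries, as were 10.1% of all genes. The direction of the median held under that and 3 other scalings. Within the F2 libraries the median difference of HP from LP was −0.24, where all genes had −0.06. Within the M libraries it was −0.36, where all genes had −0.13. The comparison uses the same LP libraries as the one with NP, so the 2 do not bear on each other as separate evidence.

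Mrpl18, a protein of the central protuberance of the large subunit, had the smallest p of the members between HP and LP. It stood at 63.3 and 69.8 FPKM on LP (F2, M), 47.2, 48.1 and 52.6 FPKM on NP (F2, KO7, M) and 48.0, 41.9 and 43.4 FPKM on HP (F1, F2, M). Here NP KO7 lay with the other NP libraries and LP stood above all others, with HP minus LP at −0.57 ± 0.13 (SE) and an adjusted p of 0.219 (limma). The gene overlaps Tcp1 on the other strand. Mrps33, a small subunit protein without a bacterial relative, lay at 90.1 and 87.2 FPKM on LP, 57.3, 74.5 and 58.6 FPKM on NP and 59.9, 66.6 and 57.2 FPKM on HP. Its difference between HP and LP was −0.53 ± 0.16 (SE) at an adjusted p of 0.273 (limma), again with no overlap between LP and any other library. Mrpl19 followed at −0.52 ± 0.29 (SE), with 11.2 and 13.4 FPKM on LP and 9.02, 7.85 and 8.02 FPKM on HP, and NP spread from 6.57 (F2) to 16.2 FPKM (KO7). Mrpl32, the protein whose cleavage by the m-AAA protease is needed for ribosome assembly, had 39.9 and 41.2 FPKM on LP, 26.8 to 33.6 FPKM on NP and 29.2 to 32.9 FPKM on HP. Mrpl58, the peptidyl-tRNA hydrolase that releases stalled chains, had 186 and 159 FPKM on LP and 105 to 142 FPKM on HP, and NP KO7, at 160 FPKM, was above LP M. Mrps36, which is not a ribosomal protein, was also highest on LP, with 146 and 151 FPKM on LP, 106 to 131 FPKM on NP and 103 to 129 FPKM on HP.

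**Figure D3:**
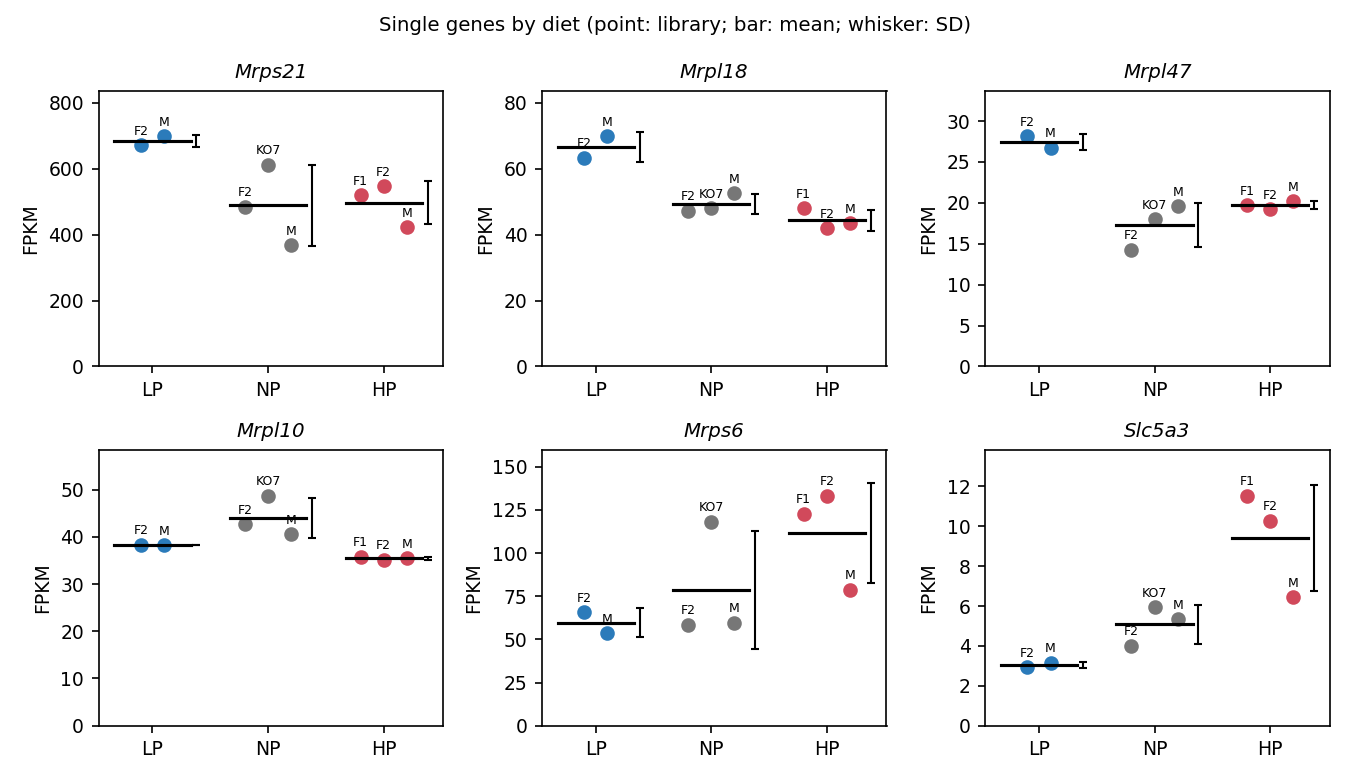
FPKM of 5 members and of Slc5a3 in each library (points, with the library label), with the mean (bar) and SD (whisker) per diet on linear axes from 0. LP stands above the other diets for Mrps21, Mrpl18 and Mrpl47, whereas Mrps6 and Slc5a3 are highest on HP.

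Between HP and NP the members showed no common direction. The log2 fold change was above 0 for 37 and below 0 for 41, with a median of −0.02 where all genes had −0.05. The median was above 0 under 3 of 4 other scalings, between −0.05 and 0.07 in all 4. HP libraries were all below NP for 7 members (8.97%), as were 8.78% of all genes, and all above NP for Mrpl22 alone, where 3.66% of all genes were. No member passed the adjusted threshold in limma, 3 of all genes did (0.0221%), and at an unadjusted p under 0.05 in limma 3 members were lower (3.85%, against 5.92% of all genes) and 0 higher (against 2.96%). These were Mrpl44, Mrpl10 and Mrps17. Mrpl44, a large subunit protein with a fold of the RNase III family, had 30.3 and 29.2 FPKM on LP (F2, M), 28.6, 32.4 and 26.2 FPKM on NP (F2, KO7, M) and 22.8, 19.6 and 24.3 FPKM on HP (F1, F2, M). All HP libraries were below all 5 others, with HP minus NP at −0.37 ± 0.14 (SE) and an adjusted p of 0.484 (limma). Exons of Mrpl44 overlap those of Wdfy1 (mean 13.1 FPKM) on the other strand. Mrpl10 was likewise lowest on HP, at 35.9, 35.2 and 35.5 FPKM, with HP minus NP at −0.30 ± 0.12 (SE), an adjusted p of 0.529 (limma) and a level on LP between those of the other diets. Against the mean of NP and LP, the median of the members on HP was −0.14, all HP libraries were below the 5 others for 6 members (7.69%, against 4.23% of all genes) and above them for 0 (against 1.49%), and 0 members passed the adjusted threshold in limma, where 1 gene of all did (0.00737%). At an unadjusted p under 0.05 in limma 8 members were lower on HP and Mrps6 higher, where 6.94% of all genes were lower and 4.08% higher.

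**Figure D4:**
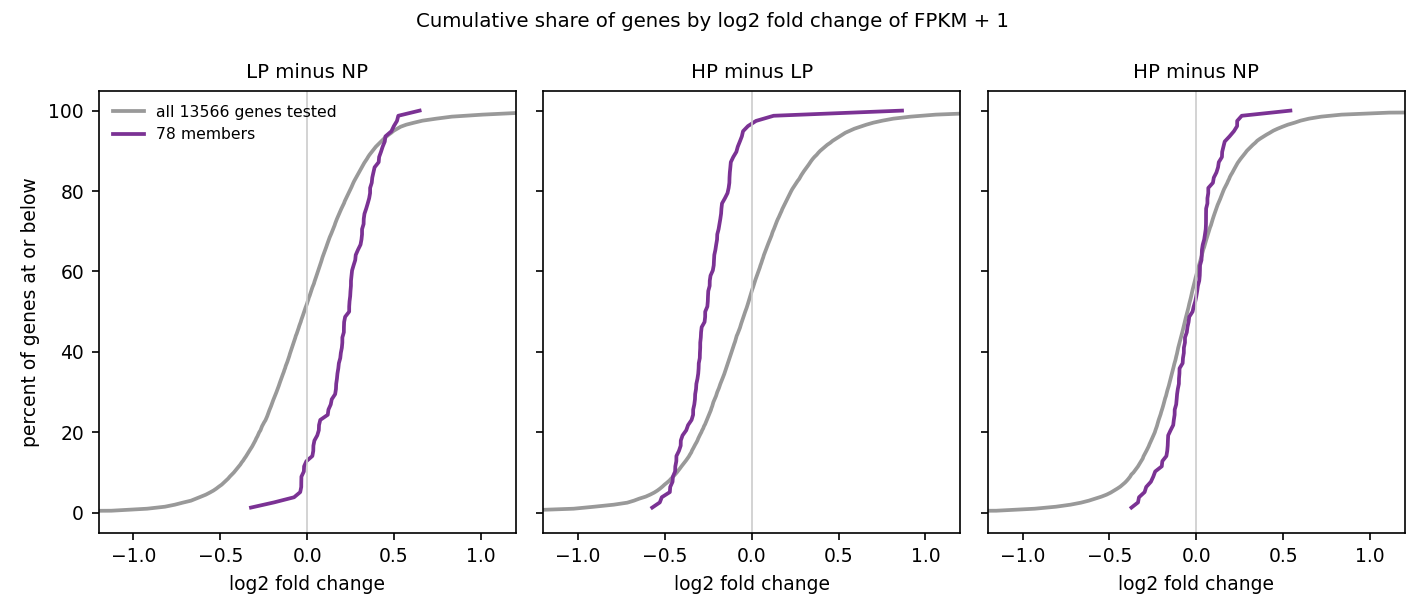
Cumulative percent of genes (y axis) at or below each log2 fold change of FPKM + 1 (x axis) for the 78 members and all 13566 genes tested. The members' curve lies to the right of all genes for LP minus NP (medians 0.24 and −0.02), to the left for HP minus LP (−0.26 and −0.04) and near it for HP minus NP (−0.02 and −0.05).

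Mrps6, a small subunit protein at the platform, was the exception among the members. Its levels were 65.6 and 53.6 FPKM on LP (F2, M), 58.5, 118 and 59.6 FPKM on NP (F2, KO7, M) and 123, 133 and 78.7 FPKM on HP (F1, F2, M). All HP libraries were above both LP libraries, and NP KO7 was near HP F1. HP minus LP was 0.87 ± 0.33 (SE) at an adjusted p of 0.340 (limma), and HP minus NP was 0.54 ± 0.29 (SE) at an adjusted p of 0.644. The gene shares exons on the same strand with Slc5a3, the sodium-coupled transporter of the osmolyte myo-inositol. Slc5a3 stood at 2.94 and 3.16 FPKM on LP, 4.0, 5.93 and 5.33 FPKM on NP and 11.5, 10.3 and 6.43 FPKM on HP. For Slc5a3 the 3 diets did not overlap and stood in the order of protein content, with HP minus LP at 1.33 ± 0.25 (SE) and an adjusted p of 0.176 (limma). Reads from the shared exons can be assigned to either gene, and what part of the Mrps6 level they make up was not tested. Mrps23, whose protein has no bacterial relative, had the next highest value of HP minus LP, 0.13 ± 0.26 (SE), with 71.9 and 77.1 FPKM on LP, 52.8 to 96.4 FPKM on NP and 64.3 to 91.7 FPKM on HP, and no separation of the diets. Mrps25, a small subunit protein of the same kind, had HP minus NP at 0.24 ± 0.20 (SE) and overlapping libraries.

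The 3 relatives of bacterial protein S18, which take different places in the mitochondrial ribosome, did not show the same order of diets. Mrps18a had 84.9 and 79.4 FPKM on LP (F2, M), 71.9, 71.4 and 63.0 FPKM on NP (F2, KO7, M) and 73.8, 71.9 and 65.2 FPKM on HP (F1, F2, M). Mrps18c had 84.8 and 80.0 FPKM on LP, 70.0, 76.7 and 53.4 FPKM on NP and 63.5, 70.6 and 62.0 FPKM on HP. For both genes LP stood above all other libraries. Mrps18b had 34.2 and 44.2 FPKM on LP, 37.5, 41.8 and 40.4 FPKM on NP and 26.5, 31.6 and 37.4 FPKM on HP, so that LP and NP overlapped and HP was below NP by a narrow margin. None of the 3 passed the adjusted threshold in a comparison of 2 diets (limma, smallest adjusted p 0.473, Mrps18c in HP against LP).

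The LP difference was present in every class of the particle. Median LP minus NP was 0.24 for the 31 large subunit members with bacterial relatives, 0.28 for the 20 without, 0.21 for the 17 small subunit members with bacterial relatives and 0.16 for the 9 without. For HP minus LP the same medians were −0.30, −0.21, −0.25 and −0.24. The 5 proteins of the particle that carry other names (Dap3, Ptcd3, Chchd1, Aurkaip1 and Gadd45gip1) were all above 0 in LP minus NP, with a median of 0.34, and all below 0 in HP minus LP, with a median of −0.25. None of the 5 passed the adjusted threshold (limma). Dap3, a GTP-binding protein of the small subunit, had 96.4 and 94.5 FPKM on LP (F2, M), 86.7, 86.4 and 81.3 FPKM on NP (F2, KO7, M) and 88.1, 78.2 and 74.2 FPKM on HP (F1, F2, M), with LP above all others.

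Assembly and translation factors of mitochondria did not share these medians. For 29 factors of mitochondrial ribosome assembly the median was 0.04 in LP minus NP and −0.13 in HP minus LP, and for 15 translation factors 0.00 and −0.10. With haemoglobin and mitochondrially encoded genes left out of the scaling, these medians became −0.05 and 0.01 for the assembly factors and −0.11 and 0.03 for the translation factors. The 8 genes of mitochondrial DNA maintenance had a median of 0.14 in LP minus NP, with 7 above 0. In HP minus LP their median was −0.25, with all 8 below 0. Under that scaling their medians were 0.03 and −0.10. Cytosolic ribosomal protein genes had larger values than the members in the same direction, with medians of 0.36 and −0.50 over 80 genes and 79 of 80 above 0 in LP minus NP. Under that scaling their medians were 0.24 and −0.34, where the members had 0.13 and −0.11. Nuclear genes for respiratory chain subunits (76) had 0.26 in LP minus NP and −0.07 in HP minus LP, given for the values as deposited only. The 12 regulators of mitochondrial biogenesis had a median of −0.16 in LP minus NP, with 9 below 0 and 3 above. Esrrb had the lowest value of the 12, −1.19 ± 0.37 (SE), at an adjusted p of 0.409 (limma). Ppargc1a, the coactivator that drives biogenesis, was at 5.76 and 6.52 FPKM on LP, 8.82, 6.92 and 9.26 FPKM on NP and 11.3, 7.76 and 7.48 FPKM on HP. LP was below all others for this gene (adjusted p 0.545 for LP against NP, limma). Every LP library was below every NP library for 16.4% of all genes. None of these lists held a gene past the adjusted threshold in these comparisons.

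The RNA partners of the members had another pattern. The 12S ribosomal RNA of the small subunit, mt-Rnr1, had 4796 and 2992 FPKM on LP (F2, M), 3647, 2562 and 3032 FPKM on NP (F2, KO7, M) and 4901, 6930 and 4593 FPKM on HP (F1, F2, M). The 16S RNA of the large subunit, mt-Rnr2, had 3741 and 2710 FPKM on LP, 3230, 2786 and 2874 FPKM on NP and 3741, 5641 and 4675 FPKM on HP. For both RNAs every HP library was above every NP library, and LP overlapped with NP. HP minus NP was 0.82 ± 0.25 (SE) for mt-Rnr1 and 0.64 ± 0.21 (SE) for mt-Rnr2, at adjusted p of 0.413 and 0.427 (limma), and stayed above 0 under the 3 other scalings by a factor per library. Libraries were made from poly(A)-selected RNA, so these values cover only the selected part of each rRNA. The 13 mRNAs of mitochondrial DNA, which the particle translates, had a median of 0.20 in HP minus NP with all 13 above 0, 0.17 in LP minus NP with 9 above 0, and 0.01 in HP minus LP. With haemoglobin and mitochondrially encoded genes left out of the scaling, the last 2 became 0.05 with 8 above 0 and 0.16 with 13 above 0. None passed the adjusted threshold in limma.

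Transcript length moved with the same comparisons across all genes. The principal transcript of a member had a median of 1255 nt (418 to 7300), where all coding genes tested had 2778 nt. Among other coding genes the median LP minus NP was 0.24 in the 902 genes under 1000 nt, 0.09 at 1000 to 2000 nt, −0.05 at 2000 to 4000 nt and −0.16 in the 3332 genes of 4000 nt or more. The members under 1000 nt (26 genes) had 0.26, close to the other short genes, and those of 1000 to 2000 nt (28) had 0.15. The 16 members of 2000 to 4000 nt had 0.35 and the 8 of 4000 nt or more had 0.17, where other genes of these lengths were below 0. In HP minus LP the members' medians were −0.25, −0.25, −0.30 and −0.26 in the 4 classes, and those of other genes −0.22, −0.14, −0.01 and 0.09. In NP KO7 the other genes under 1000 nt were at a median of 0.15 above their own mean, and in NP M and HP M at −0.23 and −0.20, as the members were. The part of length in the members' values was not tested.

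**Figure D5:**
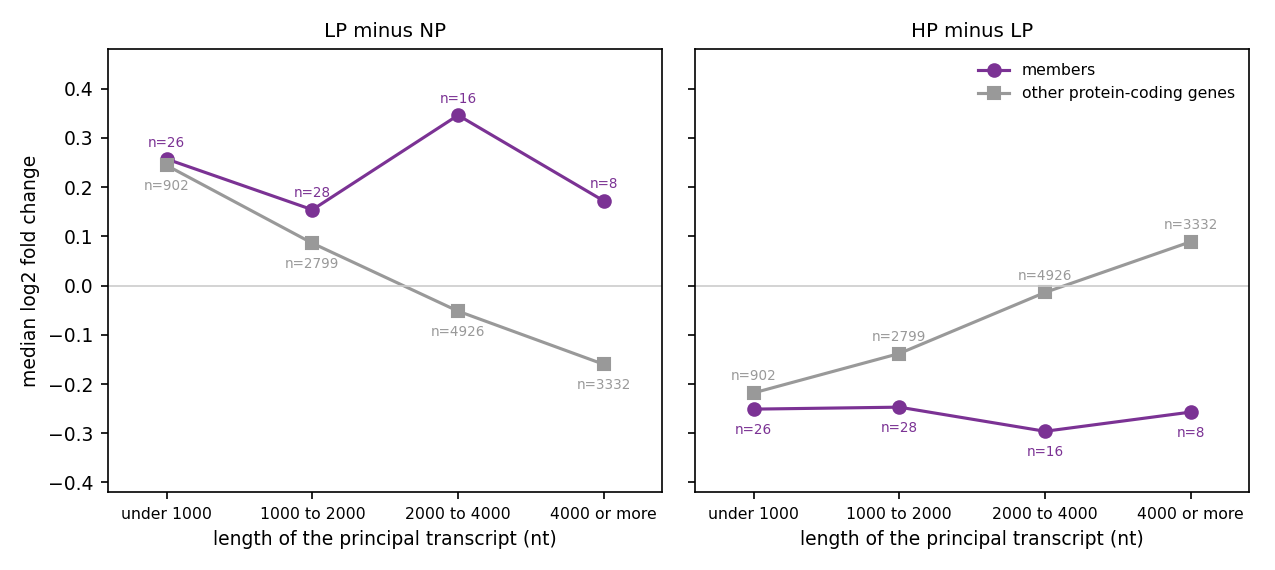
Median log2 fold change (y axis) of the members and of other protein-coding genes in 4 classes of principal transcript length (x axis), with the number of genes at each point. For other genes the median is lower in longer classes in LP minus NP (0.24 to −0.16) and higher in HP minus LP (−0.22 to 0.09), and for members it stays between 0.15 and 0.35 and between −0.30 and −0.25.

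Markers of cell types also differed between the diets. Thick ascending limb markers (5 genes) summed to 463 to 494 FPKM on LP, 793 to 1747 FPKM on NP and 906 to 2040 FPKM on HP, and principal cell markers (4 genes) to 140 to 156 FPKM, 272 to 461 FPKM and 220 to 344 FPKM. Proximal tubule markers summed to 3426 to 3772 FPKM on LP, 4376 to 5886 FPKM on NP and 3379 to 4623 FPKM on HP. LP was below NP for all 8 proximal tubule, 5 thick ascending limb, 4 principal and 5 intercalated cell markers, and for 2 of 3 distal convoluted tubule markers. The other of these, Pvalb, was higher on LP, at a log2 fold change of 0.42 ± 0.50 (SE). Macrophage markers summed to 149 to 167 FPKM on LP, 72.9 to 119 FPKM on NP and 163 to 201 FPKM on HP. Erythroid genes (4) summed to 125 to 147 FPKM on LP, 89.7 to 204 FPKM on NP and 226 to 424 FPKM on HP, and all 4 were higher on HP than on LP and on NP at an unadjusted p under 0.05 in limma. Endothelial markers (5 genes) summed to 40.9 to 48.0 FPKM, 33.5 to 39.3 FPKM and 40.3 to 79.3 FPKM on the 3 diets. Although this sum was higher on LP than on NP, 4 of the 5 endothelial markers had a log2 fold change below 0. The other 1 was at 0.69. Distal convoluted tubule markers (3 genes) summed to 61.1 to 72.6 FPKM, 78.5 to 219 FPKM and 104 to 249 FPKM. The part of cell composition in the members' values was not tested.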

How the data were processed

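RNA of flow-sorted tubular epithelial cells was sequenced by the authors in 8 pooled libraries. Per the labels and the study's methods they used Trim Galore 0.6.7 for trimming and RSEM 1.3.3 for quantification (GRCm39), and the deposited table holds the resulting FPKM values. Labels and methods name different kits, and whether counting used strand is not given in the sources used here. Exons of 33 members overlap those of another annotated gene, and for 15 members such a gene had a mean above 5 FPKM. Symbols came from GENCODE M21 (52147 identifiers matched, 1553 did not), and no coordinates of the files are printed because that release uses GRCm38. FPKM sums were 896519 to 1010563, and of the low values 82.5 to 86.7% lay within 0.15 of a whole fragment (an even spread gives 30.0%). The depth and fragment length of each library were chosen for the largest such share, so the even spread is a low baseline for it.

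Values were compared as log2(FPKM + 1) with limma 3.58.1 (R 4.3.3), with a variance trend, over genes at 1 FPKM or more in 2 or more libraries, 1 mean per diet, Benjamini-Hochberg adjustment over all genes and a threshold of 0.05. The pseudocount understates the change of low genes. P-values measure the spread between pooled libraries. The script was checked on simulated data. Members with named values are the 4 highest and 4 lowest by mean, the 3 furthest in each direction of each comparison of 2 diets, the Mrps18 relatives, and Mrpl12, Mrpl58, Mrps30, Mrps36 and Mrpl32. Mrps17, Mrpl37 and the overlapping genes Slc5a3, Ndufb5, Actl6a, Tcp1 and Wdfy1 were named after their values were seen. Members and lists were chosen with earlier results of these data known. Deviations from the diet mean correlated at 0.145 to 0.346 over 6 pairs of libraries with the same label (F2 or M). Pairs with other labels had −0.381 to 0.252, so the ranges overlapped. The pairs share libraries and are not independent, and the deviations of LP F2 and LP M mirror each other by construction. A fit with the label as a block was also run.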

Additional observations from a re-analysis of the deposited data

How the results depend on the processing

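No member passed the adjusted threshold under any of 23 alternatives (pseudocount, filter, scaling, variance prior, weights, block, covariate and libraries left out), with 1 exception. With the first letter of the label as covariate and NP KO7 left out, 1 member, Mrps6, was called when HP was set against the average of both other diets, and 115 of all genes. The replicate block by label changed no call: 0 members were called, the members' medians were 0.35 for LP against NP, −0.29 for HP against LP, 0.02 for HP against NP and −0.14 for HP against that average, and 46 members (59.0%) in LP against NP had an unadjusted p under 0.05, as had 22.8% of all genes. Across alternatives with 2 or more libraries per diet, members at an unadjusted p under 0.05 in limma numbered 4 to 46 in LP against NP. In HP against LP they numbered 4 to 39. With the same FPKM sum the shares were 5.13% (9.41% of all genes) and 6.41% (9.34%) in these comparisons. Without haemoglobin and mitochondrial genes they were 6.41% (10.9%) and 5.13% (11.4%), below all genes again. Quantile normalization gave 21.8% (13%) and 10.3% (13.9%). Median-of-ratios scaling, by a factor per library, gave 14.1% (12%) and 12.8% (13.1%). The median of the members stayed above 0 in LP against NP (0.13 to 0.35) and below 0 in HP against LP, where it was −0.13 after quantile normalization and −0.11 after scaling without haemoglobin and mitochondrial genes. In HP against NP its sign changed in 9 of 24 alternatives. Members higher in both LP libraries than in all NP libraries numbered 19 at the same FPKM sum (7.72% of all genes). They numbered 32 to 55 with 1 NP or HP library left out (12.7 to 20.8% of all genes). The alternative without NP KO7 and LP M was chosen after seeing the data. It and those without 1 LP library hold only 1 LP library, so their counts are not given here. The count below both LP libraries on HP was 32 with the same FPKM sum (13.2% of all genes) and 29 after quantile normalization (17.8%). It was 22 without haemoglobin and mitochondrial genes (10.1%), and 49 to 59 with 1 NP or HP library left out (20.3 to 31.7%). The cause of these shifts was not tested. Using the libraries of the compared diets only was not run against that average, where it is the same fit. No member was near the limit of detection at this depth.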

Other observations

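Mrpl23-ps1, a processed pseudogene named after a member, lay between 7.07 and 14.4 FPKM over the 8 libraries, and levels of Mrpl23 are uncertain to that extent. The other 4 processed pseudogenes named after members stayed at 2.99 FPKM or less in every library.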
